A study of Homo sapiens with 6 samples.

Results

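Accessible regions that lie far from every coding gene were followed across 6 ATAC-seq peak lists. Peaks of the 6 lists were merged where they shared at least 1 bp, and merged regions more than 500 kb from the body of every protein-coding gene in the RefSeq gene table of GRCh38.p14 were kept. The 48 bins of 1 Mb in which the lists averaged at least 60 peaks were left out. This gave 5241 regions out of 75653 merged regions on chromosomes 1 to 22 and X. They are called distal regions here.

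The libraries came from ARP1, a human line of multiple myeloma, a cancer of antibody-secreting plasma cells. There were 3 libraries of KDM6A knockout (KO) cells and 3 of wild-type (WT) cells, and the submitters' question was how KDM6A acts on DNA accessibility. ATAC-seq marks open DNA through the cuts of the Tn5 transposase. The labels give each library a biological replicate number but name no culture or knockout clone, so a p-value here reflects the spread among 6 libraries and no more.

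Gene deserts are long stretches without coding genes, and many lie beside genes of development and of the nervous system, for which they can carry distant enhancers. Much of their chromatin is compact in most cell types. KDM6A, also called UTX, is a demethylase of histone H3 lysine 27 and belongs to the KMT2C and KMT2D complexes, which act at enhancers. Sequence beside centromeres also lacks coding genes, but is made largely of satellite repeats and copied segments.

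The label gene desert held for only part of the distal regions. Of the 5241, 2497 lay on chromosome arms and 2744 lay within 3 Mb of a centromere band or on the short arms of chromosomes 13, 14, 15, 21 and 22. These are called arm deserts and centromere-proximal regions. The split was made after the values had been seen, and the band positions are textbook knowledge rounded to whole Mb. Both are described throughout, because their peak numbers and calls differed.

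The lists differed in length and in background pileup. KO lists held 33018, 37269 and 36024 peaks, and WT lists held 54409, 54429 and 56012. The background pileup behind the peaks, recovered from the steps of the authors' fold values, was 2.31 ± 0.26 in KO libraries and 3.52 ± 0.36 in WT libraries (SD, n = 3 each). The lowest fold in a list was 3.23 ± 0.12 in KO lists and 2.81 ± 0.10 in WT lists, so a weak region was called less readily in a KO list. List length, background and genotype moved together and cannot be told apart, and counts are therefore also given at equal length, from the 33018 strongest peaks of every list by −log10 p-value. Each list had 1 peak at an end of KDM6A, which does not check the knockout because the labels do not give the deleted part. All 6 lists also had peaks at the ends of the plasma cell genes SDC1, TNFRSF17, IRF4 and XBP1. A further plasma cell gene, PRDM1, had 1, 0 and 0 end peaks in KO lists and 2, 2 and 2 in WT lists. No list had a peak at the ends of CD14 or ALB, which mark monocytes and hepatocytes, while all 6 had 1 at the ends of the T cell gene CD3E. Per the labels, library quality was judged by qPCR of the GAPDH promoter against a desert region, whose position is not given in the sources used here.

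Few distal regions coincided with a known start of transcription. Among RefSeq windows from 250 bases before to 50 after an annotated start, 34 windows of 31 genes overlapped a distal region, and every one belonged to a long non-coding RNA (lncRNA). Of these, 21 windows of 21 genes lay in arm deserts. Sequences of 5 of them are shown, since such windows are the only parts of these regions whose letters were at hand. They are the strongest pair, 1 from the gap with the highest WT-only share, and a pair on chromosome X, of which LINC02595 is the most CpG-rich. They are from RefSeq, build GRCh38.p14, written 5′ to 3′ on the gene's own strand, with each CpG in capitals. NIHCOLE lies at chr5:104080648-104080947 (plus strand), LOC105377950 at chr6:112879867-112880166 (plus strand) and LOC124900845 at chr4:32140729-32141028 (minus strand). LINC02595 lies at chrX:45851441-45851740 and MIR222HG, the host gene of the microRNAs miR-221 and miR-222, at chrX:45770218-45770517 (both minus strand).
NIHCOLE: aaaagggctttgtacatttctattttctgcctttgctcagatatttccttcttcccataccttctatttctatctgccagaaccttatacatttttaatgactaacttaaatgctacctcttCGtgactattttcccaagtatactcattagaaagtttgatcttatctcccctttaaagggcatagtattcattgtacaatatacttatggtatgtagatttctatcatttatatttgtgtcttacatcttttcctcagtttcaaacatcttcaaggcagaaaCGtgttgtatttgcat
LOC105377950: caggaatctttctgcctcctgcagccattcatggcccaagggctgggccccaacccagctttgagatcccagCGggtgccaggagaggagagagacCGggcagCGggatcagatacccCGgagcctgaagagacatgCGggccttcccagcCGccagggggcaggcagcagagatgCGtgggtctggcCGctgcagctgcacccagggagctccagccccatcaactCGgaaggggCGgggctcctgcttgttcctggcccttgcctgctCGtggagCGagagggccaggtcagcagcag
LOC124900845: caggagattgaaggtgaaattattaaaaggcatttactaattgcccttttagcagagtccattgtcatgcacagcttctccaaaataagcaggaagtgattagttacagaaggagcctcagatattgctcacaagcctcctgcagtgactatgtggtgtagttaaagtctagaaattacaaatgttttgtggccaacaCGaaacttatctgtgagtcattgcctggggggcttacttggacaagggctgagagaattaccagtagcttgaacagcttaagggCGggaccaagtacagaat
LINC02595: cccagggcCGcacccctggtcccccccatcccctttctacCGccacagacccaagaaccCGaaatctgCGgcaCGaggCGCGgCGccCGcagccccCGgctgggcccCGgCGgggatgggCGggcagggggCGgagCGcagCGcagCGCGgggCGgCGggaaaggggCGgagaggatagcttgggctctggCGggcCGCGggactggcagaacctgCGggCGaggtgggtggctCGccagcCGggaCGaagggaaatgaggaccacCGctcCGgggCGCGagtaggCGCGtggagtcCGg
MIR222HG: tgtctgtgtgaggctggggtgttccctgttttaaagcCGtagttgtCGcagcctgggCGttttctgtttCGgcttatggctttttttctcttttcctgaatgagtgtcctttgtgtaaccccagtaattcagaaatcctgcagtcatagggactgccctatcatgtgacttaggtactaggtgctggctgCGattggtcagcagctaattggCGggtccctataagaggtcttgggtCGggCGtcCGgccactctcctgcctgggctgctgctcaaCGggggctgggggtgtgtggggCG

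The ratio of CpGs observed to those that the base content would give was 0.27 for NIHCOLE, 0.36 for LOC105377950 and 0.15 for LOC124900845. It was 0.85 for LINC02595, whose window held 36 CpGs, and 0.51 for MIR222HG, whose window held 11. The median ratio was 0.316 over the 21 windows in arm deserts, 0.176 over all 582 windows of chromosome arms that lie more than 500 kb from coding genes, and 0.579 over all 35116 RefSeq windows. A ratio of at least 0.6 was found in 3 of the 21 windows (14.3%), in 4.64% of the 582 and in 48.9% of all windows. CpG-rich starts were thus few in arm deserts, and the difference between these shares was not tested.

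Of the 5 windows, 4 lay in regions called in all 6 lists. The region at NIHCOLE had folds of 26.2, 24.3 and 24.4 in KO lists and 39.9, 43.0 and 30.6 in WT lists, where the fold is the authors' own value for each peak, its pileup over background. The region at LOC105377950 had 22.9, 22.9 and 18.5 in KO lists and 30.5, 39.6 and 31.6 in WT lists. Every WT fold was above every KO fold at both. This order was common, found in 63.7% of arm deserts called in all 6 lists and 43.9% of all regions so called. The background under the folds differed between the genotypes. By percentile at equal list length these shares were 32.7% and 16.6%. The region at LINC02595 had folds of 7.22, 8.52 and 4.21 in KO lists and 6.62, 8.99 and 8.38 in WT lists, and the groups overlapped. At MIR222HG a peak was called in KO replicate 2 with a fold of 7.87, and in all 3 WT lists with folds of 5.34, 6.32 and 6.50. A single KO list therefore held it, with a fold above all 3 WT folds.

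Arm deserts held far fewer peaks in KO cells than in WT cells. KO lists held 656, 747 and 667 peaks in arm deserts, against 1703, 1641 and 1861 in WT lists. The groups did not overlap, and the KO mean was 39.8% of the WT mean (exact two-sided permutation test over the 20 labellings, p = 0.1, the smallest that 3 against 3 libraries can give, which holds for every such test here). The covered length was 0.412 ± 0.029 Mb in KO lists and 1.22 ± 0.13 Mb in WT lists (SD, n = 3 each).

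The difference in arm deserts exceeded the difference in list length. Arm deserts held 1.99%, 2.00% and 1.85% of the peaks in KO lists and 3.13%, 3.01% and 3.32% of those in WT lists (exact permutation p = 0.1). The widest Wilson intervals at the 95% level, which cover counting error only, were 1.84% to 2.14% in KO replicate 1 and 3.18% to 3.47% in WT replicate 3. It also exceeded the difference at other intergenic regions. For every 100 arm peaks outside genes, over 1 kb from a gene end and within 500 kb of a coding gene, called nearer intergenic here, KO lists held 8.02, 7.76 and 7.52 arm desert peaks and WT lists 10.05, 9.56 and 10.39. Again no KO library reached a WT library, and the difference was −2.23 (exact permutation p = 0.1).

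The other classes of region on the arms differed less. KO lists had 51.3% of the WT mean at nearer intergenic regions, 54.0% inside genes and 94.5% at gene ends (within 1 kb of either end of a coding gene), against 39.8% in arm deserts. At equal list length these values were 83.8%, 85.4% and 105.9%, and 65.5% in arm deserts. There KO lists held 656, 667 and 617 arm desert peaks and WT lists 970, 948 and 1044, still without overlap.

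**Figure D1:**
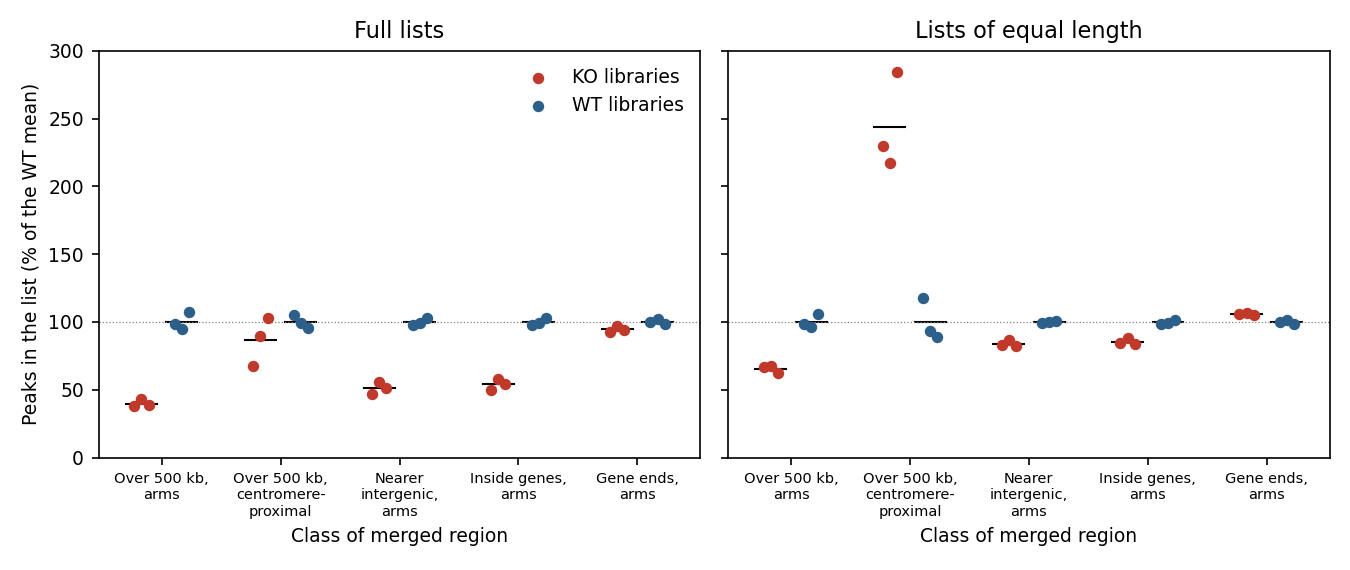
Peaks per list in 5 classes of merged region, as a percentage of the mean of the 3 WT lists, for full lists (left) and for the 33018 strongest peaks of each list (right); each point is 1 library, black lines are means, and KO libraries stand left of WT libraries. In arm deserts KO libraries averaged 39.8% of WT in full lists and 65.5% at equal length, while in centromere-proximal regions they averaged 86.6% and 244%.

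Centromere-proximal regions did not follow this pattern. KO lists held 914, 1215 and 1392 peaks there and WT lists 1430, 1341 and 1297, so the groups overlapped (exact permutation p = 0.3). As a share of the list they made up 2.77%, 3.26% and 3.86% in KO lists and 2.63%, 2.46% and 2.32% in WT lists, higher in every KO library (exact permutation p = 0.1). At equal list length KO lists held 914, 864 and 1134 and WT lists 470, 372 and 353, and the KO mean was 244% of the WT mean. The turn was not particular to distal regions. At nearer intergenic regions beside centromeres the KO mean was 73.8% of the WT mean in full lists and 137% at equal length. Peaks of centromere-proximal regions were weaker than those of arm deserts. Their median fold per list was 4.49 to 5.12 in KO lists and 4.19 to 4.37 in WT lists, against 5.89 to 6.88 and 5.77 to 6.32 in arm deserts.

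All distal regions pooled showed less of a difference. They held 1570, 1962 and 2059 peaks in KO lists and 3133, 2982 and 3158 in WT lists, 60.3% of the WT mean, beside 64.5% for the whole lists. Their share of the list was 4.75%, 5.26% and 5.72% in KO lists and 5.76%, 5.48% and 5.64% in WT lists, which overlapped (exact permutation p = 0.3). At equal list length the direction turned, with 1570, 1531 and 1751 peaks in KO lists and 1440, 1320 and 1397 in WT lists. In the full lists, for every 100 nearer intergenic peaks, KO lists held 17.6, 18.7 and 21.1 distal peaks and WT lists 17.3, 16.3 and 16.6, higher in every KO library (exact permutation p = 0.1). The difference was 2.40, and 1.39 without KO replicate 3. The covered length in full lists was 1.59 ± 0.35 Mb in KO lists and 2.64 ± 0.20 Mb in WT lists (SD, n = 3 each).

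Counts of single regions showed the same split. A region is called WT-only when all 3 WT lists and no KO list held it, and KO-only in the converse case. Of 1795 distal regions in all 3 WT lists, 463 (25.8%) were WT-only, beside 17.3% of all merged regions that the 3 WT lists held. Arm deserts gave 419 of 1194 (35.1%) and centromere-proximal regions 44 of 601 (7.32%). On the arms the share was 24.5% at nearer intergenic regions, 23.7% inside genes and 2.65% at gene ends. At nearer intergenic regions beside centromeres it was 13%. Of centromere-proximal regions, 84, 94 and 87 were WT-only without WT replicate 1, 2 or 3 and 88 without KO replicate 3. Of the 419 arm deserts, 69 had every WT fold at least 2 times 3.31, the highest of the lowest folds of the KO lists. Among regions within this limit, which selects by WT folds, the share was 12% in arm deserts and 5.22% at nearer intergenic regions of the arms. It was 2.91% of all merged regions within it.

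KO-only regions were fewer. Of 907 distal regions in all 3 KO lists, 6 (0.662%) were KO-only, beside 0.39% of all merged regions that the 3 KO lists held, and 2 of 453 (0.442%) in arm deserts. The count of 6 depended on single libraries: it was 44, 26 and 24 without KO replicate 1, 2 or 3, and 14, 18 and 12 without WT replicate 1, 2 or 3. It was 83 at equal list length. There were 807 distal regions called in all 6 lists (15.4%, beside 31.2% of all merged regions). These were 446 arm deserts and 361 centromere-proximal regions. Many regions were in a single list, 893 of the arm deserts and 1251 of the centromere-proximal ones. Of the arm deserts 1546 (61.9%) were called only in WT lists, in any number of them, beside 40.8% of all merged regions. Another 64 (2.56%) were called only in KO lists, beside 7.21% of all merged regions. For centromere-proximal regions these counts were 851 and 647.

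At equal list length the WT-only share was lower, but arm deserts again had the highest. It was 165 of 779 (21.2%) in arm deserts and 11.6% at nearer intergenic regions of the arms, beside 7.23% of all merged regions in 3 WT lists. KO-only regions were 9 of 437 arm deserts (2.06%), beside 3.82% of all merged regions in 3 KO lists, and 74 of 396 centromere-proximal regions (18.7%). Beside centromeres the share was 9.63% at nearer intergenic regions and 13.7% in the bins left out. In full lists 4 of 454 centromere-proximal regions were KO-only (0.881%), and the cut to equal length took more peaks from the longer WT lists.

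The share of WT-only regions followed the distance to the nearest coding gene. Over intergenic regions of the arms it was 21.3% within 50 kb, 24.9% from 50 to 100 kb, 28.9% from 100 to 250 kb and 30.8% from 250 to 500 kb. Beyond 500 kb it was 35.1% up to 1 Mb, and 35.1% farther out. Regions just short of the 500 kb limit thus already had a higher share than those within 50 kb. KO peaks as a percentage of WT peaks were 55.2%, 50.3%, 46.7%, 43.4%, 39.6% and 40.3% over the same 6 ranges of distance. The median WT fold hardly varied, from 7.29 to 7.82.

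**Figure D2:**
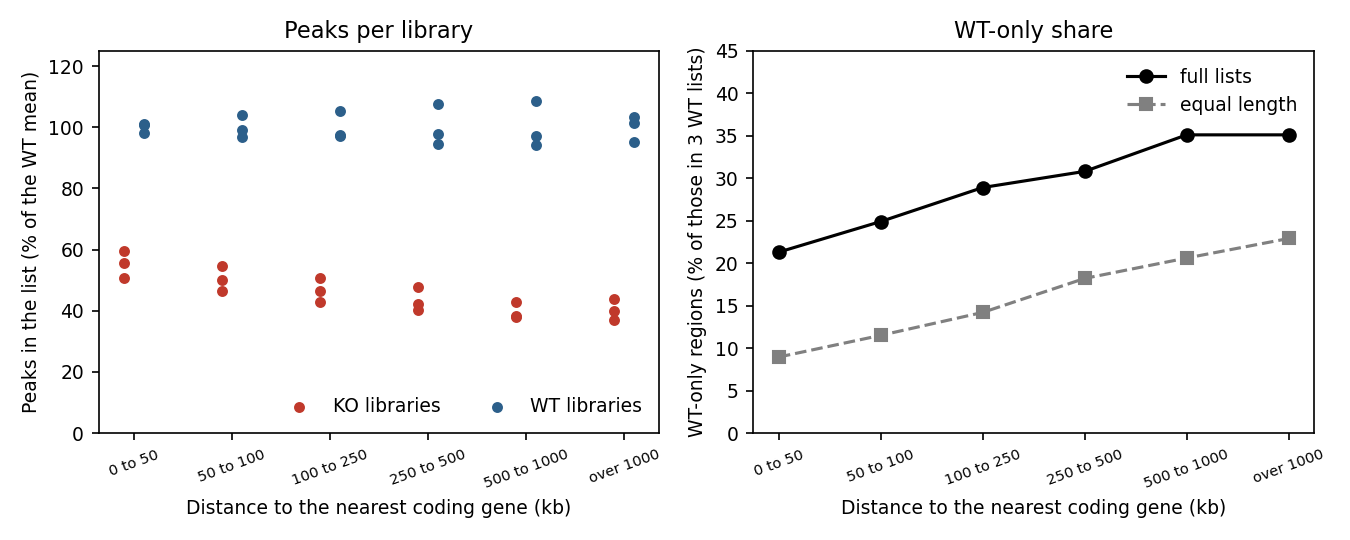
Intergenic regions of the chromosome arms by distance to the nearest coding gene in kb; left, peaks per library as a percentage of the WT mean, with KO libraries left of WT libraries, and right, WT-only regions as a percentage of regions called in all 3 WT lists. KO libraries fall further below WT with distance up to 1 Mb, and the WT-only share is 21.3% within 50 kb and 35.1% beyond 500 kb in full lists, or 8.95% and 20.6% to 22.9% at equal length.

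Among the 5 classes plotted by strength, arm deserts had the highest WT-only share at every level. Regions in all 3 WT lists were placed in 5 ranges of 20 percentile points by their mean percentile in those lists, so WT values alone set the ranges. From weakest to strongest, 73.6%, 73.8%, 43.8%, 15.1% and 3.61% of arm deserts were WT-only. At nearer intergenic regions of the arms the values were 63.6%, 52.9%, 29.6%, 7.01% and 0.737%, lower in each range. Centromere-proximal regions had 23.4% in the weakest range and 5.97% or less in the others.

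**Figure D3:**
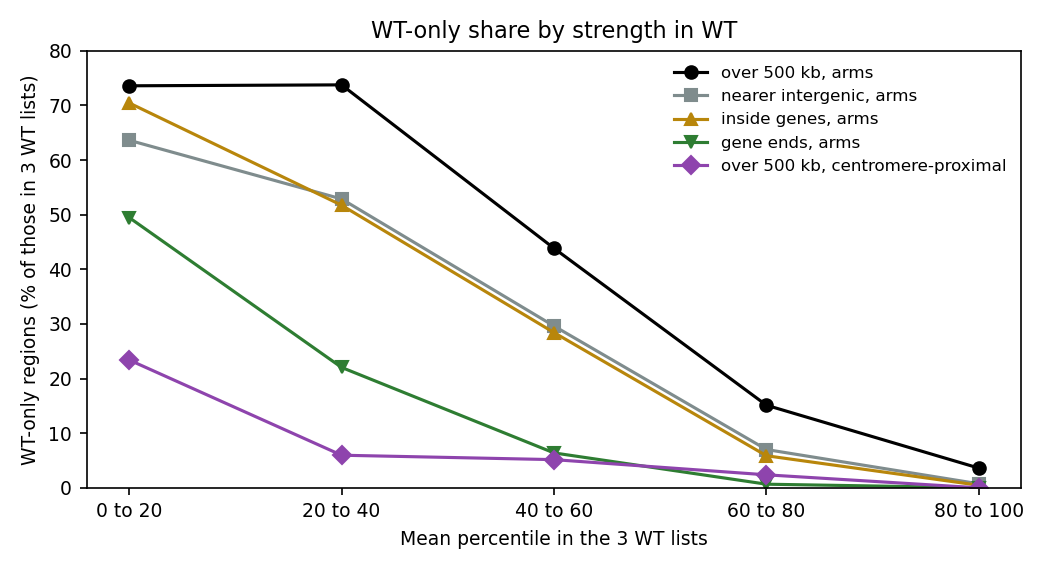
WT-only regions as a percentage of regions called in all 3 WT lists, by mean percentile of the region in the WT lists, for 5 classes. Arm deserts lie above the other plotted classes in each range, from 73.6% in the weakest to 3.61% in the strongest, and centromere-proximal regions lie at 23.4% and lower.

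Regions called in all 6 lists were also compared by strength. Among the 446 arm deserts called in all 6 lists, every KO fold was below every WT fold in 284 (63.7%), beside 43.9% of all regions called in all 6. The share was 55.4% at nearer intergenic regions of the arms and 5.82% at centromere-proximal regions. The converse order, every KO fold above, held for 5 arm deserts (1.12%) and 37 centromere-proximal regions (10.2%), beside 2.81% of all regions called in all 6. Since folds are taken over a background that differed between the genotypes, ranks at equal list length were compared as well. Every KO percentile was then below every WT percentile in 133 of 407 arm deserts (32.7%), beside 16.6% of all such regions and 22.5% at nearer intergenic regions of the arms. The converse held in 104 of 194 centromere-proximal regions (53.6%), beside 19.1% of all such regions. It held in 27.8% of nearer intergenic regions beside centromeres.

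In these shared regions the median percentile of arm deserts lay −2.22, −4.28 and −4.12 points from that of nearer intergenic regions in KO lists, and 1.01, −2.21 and 2.11 points in WT lists. The nearest KO and WT values, −2.22 and −2.21, almost met (exact permutation p = 0.1), and the difference of −3.84 depended on single libraries. It was −2.10 without chromosome 4, −2.10 without WT replicate 1 and −1.60 without WT replicate 3, and in each case the exact permutation p was 0.3. In centromere-proximal regions the same gap was 3.25, 0 and 7.85 points in KO lists and −7.00, −14.3 and −12.3 points in WT lists, with no overlap (exact permutation p = 0.1).

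Arm deserts occurred on 22 chromosomes, and on 21 of them every KO list had fewer peaks than every WT list. Over all merged regions this held on 21 of 23 chromosomes (91.3%), and over nearer intergenic regions of the arms on 22 of 23, so the count is close to that of the whole lists. At equal list length it held on 16 of 22 chromosomes for arm deserts, on 16 of 23 for nearer intergenic regions of the arms and on 12 of 23 for all merged regions. Chromosome 4 had most, 445 regions, with 114, 124 and 118 peaks in KO lists and 315, 294 and 324 in WT lists. Chromosome 13 had 41, 49 and 43 peaks in KO lists and 140, 122 and 152 in WT lists. On chromosome X, which carries KDM6A, KO lists held 11, 20 and 14 peaks and WT lists 40, 38 and 37. Without chromosome 4 the arm desert means were 571 peaks in KO lists and 1424 in WT lists.

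**Figure D4:**
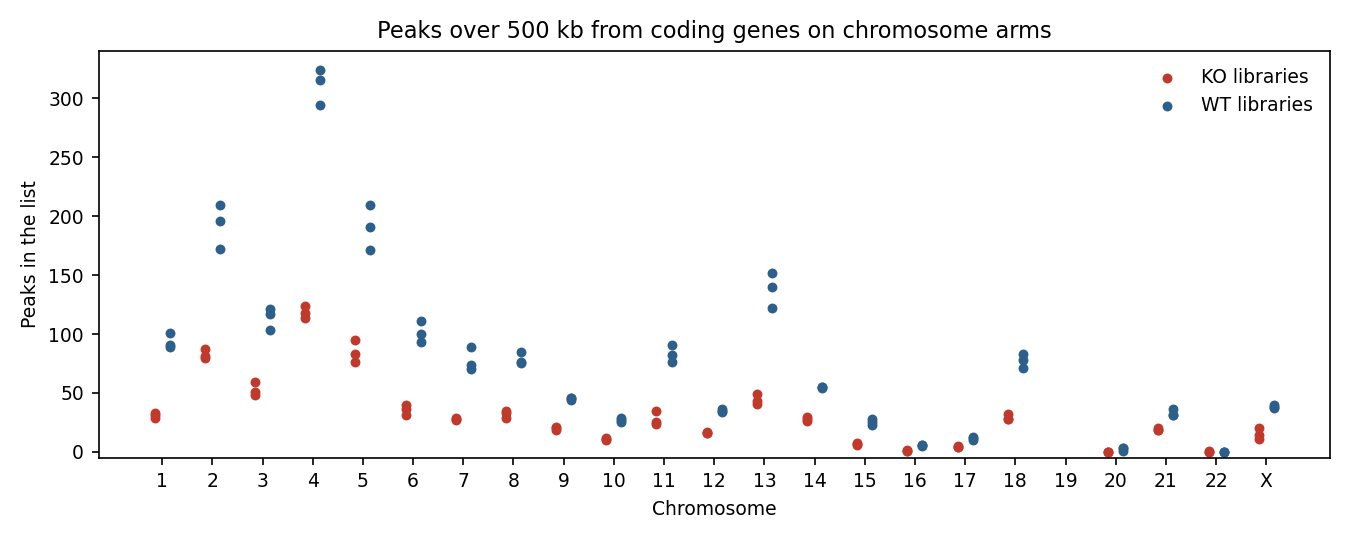
Peaks in arm deserts per library on each chromosome, KO libraries left of WT libraries. On chromosome 4 KO libraries hold 114 to 124 peaks and WT libraries 294 to 324, and apart from chromosomes 19, which has no arm desert, and 22, each chromosome shows all KO points under all WT points. Whole lists showed the same order on 21 of 23 chromosomes.

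Between neighbouring coding genes, arm deserts fell into 238 gaps, and in 174 of them (73.1%) every KO list had fewer peaks than every WT list. Nearer intergenic regions of the arms fell into 6140 intervals between coding genes, of which 30.6% had this order, but these held fewer peaks, a median of 6 over the 6 lists against 18 in the arm desert gaps. The shares are therefore not on the same footing. At equal list length this order held in 85 of 211 arm desert gaps (40.3%) and in 11.3% of 4941 nearer intergenic intervals. In full lists, over the 35 gaps with at least 10 regions in all 3 WT lists, the WT-only share ran from 8.33% to 81.3%. Its median was 30.8%. The share was highest, 13 of 16, between PCDH7, a protocadherin of cell adhesion, and ARAP2, a regulator of small GTPases. This gap on chromosome 4 held 4, 3 and 3 peaks in KO lists and 21, 21 and 20 in WT lists. LOC124900845, shown above, starts in 1 of the 3 regions of this gap that all 6 lists called. Its folds were 13.2, 13.8 and 8.14 in KO lists and 16.9, 15.6 and 16.6 in WT lists.

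The 4 arm gaps with most arm deserts were also looked at, a choice made after the values had been seen. RAPGEF2 to FSTL5 on chromosome 4 held 101 arm deserts, with 8, 13 and 13 peaks in KO lists and 58, 47 and 52 in WT lists, and 7 of 17 regions in all 3 WT lists were WT-only. FAM98A to CRIM1 on chromosome 2 held 59, with 9, 10 and 9 peaks in KO lists and 42, 34 and 38 in WT lists, and 12 of 24 were WT-only. MAT2B to TENM2, a teneurin of synaptic adhesion, on chromosome 5 also held 59, with 11, 18 and 15 peaks in KO lists and 46, 38 and 44 in WT lists, and 11 of 31 were WT-only. PABPC4L to PCDH18, a protocadherin, on chromosome 4 held 54, with 10, 11 and 8 peaks in KO lists and 36, 36 and 33 in WT lists, and 9 of 20 were WT-only. In all 4 gaps no KO list reached a WT list. Choosing gaps by their number of regions favours this order, since 61.9% of arm deserts were called only in WT lists. It was found in 174 of all 238 arm gaps (73.1%). Those held a median of 18 peaks over the 6 lists, so the 4 gaps cannot be set against them. Over all merged regions it held on 21 of 23 chromosomes.

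The 10 WT-only regions with the highest WT percentile all lay on chromosome arms. The first, chr13:80873334-80874130 (797 bp), lies 532 kb from SPRY2, an inhibitor of receptor tyrosine kinase signalling, and had no peak in KO lists and folds of 16.2, 11.9 and 18 in WT lists. The second, chr15:95446650-95447650, lies inside a lncRNA record between MCTP2 and NR2F2, 878 kb from NR2F2, a nuclear receptor of vessel and organ development. No KO list held it, and its WT folds were 13, 17.5 and 12.6. The third, chr5:18487739-18488565, lies between H3Y1, a variant of histone H3, and CDH18, a cadherin, and its WT folds were 13.7, 14.6 and 13.2.

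The other 7 had WT folds between 10.3 and 17.3. They lay between IFTAP and LRRC4C, a ligand of netrin-G in synapses, and between PTCHD4 and MMUT, the enzyme methylmalonyl-CoA mutase. Further ones lay between TMEFF2 and SLC39A10, a zinc transporter, and between CDC73, a subunit of the PAF1 complex, and KCNT2, a potassium channel. The rest lay between PCDH7 and ARAP2, between GRIN3A, a subunit of NMDA receptors, and CYLC2, and between TMEM38B and ZNF462. Of these 7 regions 3 overlapped a lncRNA record.

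Of the 10 distal regions called in all 6 lists with the highest mean percentile, 9 were centromere-proximal. The strongest, chr17:22520773-22522364, had folds of 1755, 1968 and 1555 in KO lists and 1406, 1550 and 1423 in WT lists. The next, chr21:8385018-8472270, was also the widest at 87253 bp, with folds of 626, 768 and 591 in KO lists and 399, 533 and 408 in WT lists. In both, every KO fold was above every WT fold. That order was found in 10.2% of centromere-proximal regions called in all 6 lists and 2.81% of all regions so called. The third, chr1:125173720-125184580, had folds of 529, 556 and 500 in KO lists and 578, 478 and 618 in WT lists, which overlapped. The other 6 lay on chromosomes 17 (3 regions), 13, 21 and 4, with folds from 48.0 to 241 in KO lists and from 50.3 to 211 in WT lists.

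The arm desert among these 10 was chr4:136298379-136299540 (1162 bp), 1219 kb from PCDH18, in the gap that opens at PABPC4L. Its folds were 46.0, 50.2 and 55.3 in KO lists and 77.9, 87.7 and 66.6 in WT lists, without overlap. For comparison the 10 strongest shared arm deserts were listed, a choice made after the values were seen. In all 10 every KO fold was below every WT fold. This order held in 63.7% of all arm deserts called in all 6 lists and 43.9% of all regions so called. By percentile at equal list length it held in 32.7% of the arm deserts. In the same gap chr4:135446999-135448714 had folds of 27.1, 25.9 and 26.4 in KO lists and 48.3, 60.3 and 48.0 in WT lists. The region between MAT2B and TENM2 had folds of 20.5, 22.9 and 16.6 in KO lists and 39.7, 47.2 and 42.5 in WT lists.

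**Figure D5:**
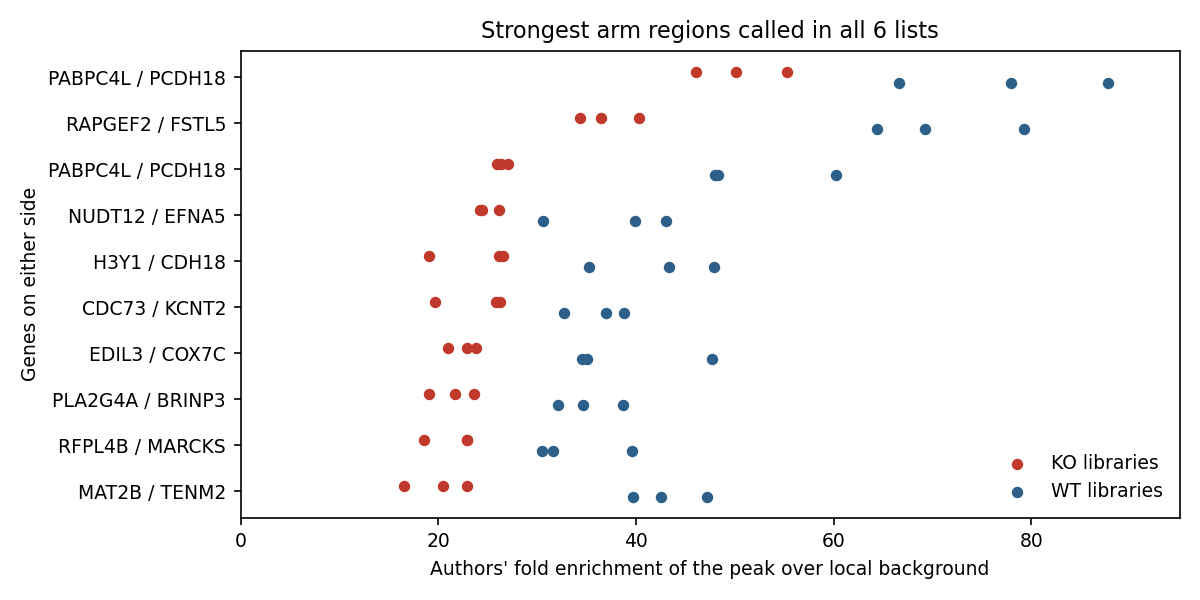
The authors' fold enrichment in each library for the 10 strongest arm deserts called in all 6 lists, named by the coding genes on either side, with KO libraries above WT libraries. The top region has 46.0 to 55.3 in KO lists and 66.6 to 87.7 in WT lists, and in all 10 the WT points lie right of the KO points. Of all arm deserts called in all 6 lists, 63.7% had this order.

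The KO-only regions were weak. The 5 with the highest KO percentile had KO folds between 3.91 and 8.42. They lay between TPTE and POTED, between USP25 and CXADR, between LOC124905938 and LOC107985915, below OR11H1 on chromosome 22, and between KLF4 and ACTL7B. The sixth, between EPHA3 and PROS1, had KO folds of 3.61, 4.59 and 3.93. Of the 6, 2 were arm deserts, and both overlapped a lncRNA record. The first, chr21:16579362-16580070, lies 699 kb from USP25, a deubiquitinase, and had folds of 5.72, 4.92 and 3.93 in KO lists, and the second, chr9:108078184-108079039, lies 588 kb from KLF4, a transcription factor, and had 4.82, 3.93 and 4.49. No WT list held either.

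The 3 widest distal regions were centromere-proximal and called in all 6 lists. Beside the one on chromosome 21, they were chr10:41868218-41902037 (33820 bp) and chr10:41902636-41915883 (13248 bp), both between ZNF37A and ZNF33B. The 3 farthest from a coding gene lay on chromosome 22, 4836 to 4894 kb from OR11H1. They were called in 2, 3 and 0 KO lists and in 2, 2 and 1 WT lists. With a −log10 q-value of at least 5, or a fold of at least 4, the second of them was in 0 KO lists and 2 WT lists.

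The 6 gaps with most distal regions were all beside centromeres. OR4C12 to OR4C46 on chromosome 11 held 318 regions, with 80, 103 and 135 peaks in KO lists and 148, 99 and 123 in WT lists. The gap below SHCBP1 on chromosome 16 held 306, the one above ZNF337 on chromosome 20 held 204 and the one below OR11H1 on chromosome 22 held 200. Those below OR11H12 on chromosome 14 and below TUBA3C on chromosome 13 held 187 and 177. WT-only regions were 1 of 36 to 7 of 33 in these gaps, and KO and WT peak numbers overlapped in each of the 6. Among all gaps with at least 10 regions in all 3 WT lists, the lowest WT-only share was 0 of 20, between LOC102723475 and LOC101927345 on chromosome 21.

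Most arm deserts overlapped no non-coding gene record. Their median width was 647 bp, against 653.5 bp for centromere-proximal regions, and it was 1149 bp for those called in all 6 lists and 773 bp for WT-only ones. The median distance to a coding gene was 0.749 Mb. Centromere-proximal regions called in all 6 lists had a median width of 2124 bp. Of the arm deserts 665 (26.6%) overlapped a non-coding gene record, and 617 overlapped a lncRNA record. At the 96 arm deserts within 1 kb of an end of a lncRNA, 12 of 58 were WT-only (20.7%). The share was 32.2% inside lncRNA records away from their ends and 36.9% outside such records. It was lowest at the ends of lncRNAs, but above the 17.3% of all merged regions and the 2.65% at gene ends of the arms. Among regions in all 3 WT lists, the median WT percentile was 63.7 at lncRNA ends, 59.4 inside the records and 58.4 outside them. These shares are descriptions of the 6 libraries and were not tested.

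The genes beside arm deserts are described by 2 lists. Gaps flanked by developmental regulators numbered 23, and 24 of 78 regions there were WT-only (30.8%), among them the region between MCTP2 and NR2F2. Gaps flanked by neuronal adhesion and receptor genes numbered 52, with 149 of 408 (36.5%), among them regions in gaps that SLITRK1, CDH18, LRRC4C and PCDH7 flank. The regions of these gaps named above as strongest WT-only lay 983 to 3003 kb from the listed gene. In each the gene on the other side was nearer. The share over all arm deserts was 35.1%, which the neuronal group nearly matched.

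Immunoglobulin genes are not protein-coding records in the table, so the heavy-chain locus beyond TMEM121 on chromosome 14 counted as an arm desert. It held 23 regions, with 8, 8 and 10 peaks in KO lists and 17, 19 and 15 in WT lists. Of 12 regions in all 3 WT lists, 1 was WT-only (8.33%), the lowest share of any arm gap with at least 10. Without regions within 500 kb of immunoglobulin or T cell receptor segments, arm deserts had a mean of 681 peaks in KO lists and 1718 in WT lists, and 418 WT-only regions.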

How the data were processed

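Each of the 6 ATAC-seq libraries of ARP1 cells, 3 KDM6A knockout and 3 wild type by sample title, had its own peak list. The submitters' processing notes list MACS2 2.1.2, Bowtie2, Trimmomatic, FastQC and MultiQC, and the build GRCh38. For their order, settings and any shift of reads for Tn5, details were not given in the sources used here. Peaks were called per library.

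The deposited lists give, for each peak, a −log10 q-value, a −log10 p-value, a fold enrichment (a ratio of pileup over background) and a score, which are the authors' own values. The score, 10 times the −log10 q-value, was not used. Folds were whole multiples of a single step per library for 100% of values (tolerance 0.02 of a step), which gave the background pileup. Peaks outside chromosomes 1 to 22 and X, 32 to 46 per list, were left out.

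Positions of 19970 coding genes came from RefSeq GRCh38.p14, in which no strand is given. No genome was used here, so motif and base composition tests of the regions were not run. Differences between the genotypes in a value per list went through an exact permutation test, two-sided, with 20 labellings. Regions are not replicates, so shares of regions were not tested and stand beside the same share over all regions. Percentiles are ranks by −log10 p-value within a list. Depth per library, given with the peak numbers, limits the calling of weak regions.

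Named regions were the 10 strongest distal regions called in all 6 lists, the 10 strongest WT-only ones, the 5 strongest KO-only ones, the 3 widest, the 3 farthest, the 6 gaps with most regions and the gaps with the highest and lowest WT-only share among those with at least 10 regions in all 3 WT lists. Members, lists and rules were chosen with earlier results of these data known. A further list of flanking genes is not reported here. Alternatives were limits of 250 kb and 1 Mb, no bin left out, no overlap with any gene record, a −log10 q-value of at least 5, a fold of at least 4, equal list length, coverage of 50% of a region, autosomes only, a replicate block and each library left out. The centromere split, its flanks of 1 and 5 Mb, and the exclusion of chromosomes 4 and 11, of genes with LOC symbols and of immunoglobulin loci were added after seeing the data. Code ran in Python 3.11.15 with numpy 2.4.6, pandas 2.3.3, scipy 1.17.1 and matplotlib 3.10.9, and was tested on simulated data.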

Additional observations from a re-analysis of the deposited data

How the results depend on the processing

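In arm deserts, KO minus WT stayed negative in every alternative for peaks, share, peaks per 100 nearer intergenic peaks, covered length, share at equal length and percentile gap. Leaving out 1 library gave −1092 to −982 peaks, −1.28 to −1.12 percentage points of share, −2.45 to −2.03 per 100, −0.875 to −0.746 Mb, −1.09 to −0.946 points at equal length and −4.22 to −1.60 percentile points. For all distal regions these were −1325 to −1081 peaks, −0.615 to −0.135 points, 1.39 (without KO replicate 3) to 3.17 per 100, −1.24 to −0.910 Mb, 0.499 to 0.832 points and 2.90 to 5.88 percentile points. Centromere-proximal regions gave −292 (without KO replicate 3) to −52.5 peaks (without KO replicate 1), 10.3 to 28.9 per 100 and 1.49 to 1.89 points.

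For all distal regions the direction turned at equal length for peaks (232) and share (0.702), over 1 Mb from genes for share (0.325), with no bin left out for share (0.723), over 250 kb for share at equal length (−0.278) and percentile gap (−1.43), and among the strongest 10000 peaks for share (−0.267). Centromere-proximal peaks turned to 62.3 with a fold of at least 4 and to 572 at equal length. The cause was not tested.

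WT-only distal regions numbered 948 over 250 kb, 140 over 1 Mb and 170 at equal length, and 525 to 635 without 1 library. In arm deserts they were 888, 110 and 165, and 465 to 541. Centromere-proximal ones were 74 with no bin left out, 23 with a fold of at least 4 and 5 at equal length, and 60 to 94 without 1 library. KO-only distal regions were 10 over 250 kb, 3 over 1 Mb, 14 with no bin left out, 3 with a −log10 q-value of at least 5, 11 with a fold of at least 4 and 83 at equal length. They were 44, 26 and 24 without KO replicate 1, 2 or 3 and 14, 18 and 12 without WT replicate 1, 2 or 3. In arm deserts they were 5 over 250 kb, 0 over 1 Mb, 0 without gene records, 0 with the q-value limit, 1 with the fold limit, 9 at equal length, 1 at 50% coverage and 1 with a flank of 5 Mb, and 2 to 4 (without KO replicate 2) without 1 library. Centromere-proximal ones were 12 with no bin left out, 10 with the fold limit and 74 at equal length, and 9 to 41 without 1 library.

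Regions called in all 6 lists numbered 1495 over 250 kb, 366 over 1 Mb, 1491 with no bin left out and 330 at 50% coverage, and 825 to 933 without 1 library. In arm deserts they were 1060 over 250 kb, 115 over 1 Mb and 190 at 50% coverage, and 446 to 513 without 1 library. At 40 named regions the calls were the same in 190 of 400 alternatives, and 2 turned, both at the region on chromosome 22 described with the farthest, each at −2 lists.

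Same-numbered libraries deviated with correlations of −0.0210, 0.0151 and −0.184, so the numbers do not pair them. With the replicate block, as a sign-flip test over 3 pairs whose smallest p is 0.25, the exact p was 0.25 for each arm desert comparison and for distal peaks (−1227), per 100 (2.40), length (−1.05 Mb), share at equal length (0.702) and percentile gap (3.99), and 0.5 for the share (−0.380) and for centromere-proximal peaks (−182). The lowest fold in a list limits weak regions, above all in KO lists, where it was higher.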

Other observations

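Bins of 1 Mb with many peaks, left out above, held 2954 further regions more than 500 kb from coding genes, of which 262 lay on chromosome arms and 2692 beside centromeres. In those on the arms, KO lists held 82, 89 and 97 peaks and WT lists 187, 152 and 196. Of 88 regions there in all 3 WT lists, 18 were WT-only (20.5%), beside 17.3% of all merged regions and 35.1% of arm deserts. Beside centromeres KO lists held 1374, 1568 and 1736 peaks and WT lists 1833, 1720 and 1755. There 30 of 975 regions were WT-only (3.08%), beside 7.32% of centromere-proximal regions.

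MicroRNA genes far from coding genes were compared with the nearest distal region. MIR221 and MIR222, which act in cell cycle control, lay 2.69 and 3.54 kb from a region called in 0 KO lists and 2 WT lists. MIRLET7C and MIR99A, on chromosome 21, lay 2.53 and 1.80 kb from a region called in 0 KO lists and 1 WT list. MIR4275, on chromosome 4, lay 31.0 kb from a region called in 0 KO lists and 3 WT lists. MIR4431, on chromosome 2, lay 14.7 kb from a region called in all 6 lists. These genes were picked after their values had been seen. Of all arm deserts 61.9% were called only in WT lists, in any number, so a region in 0 KO lists is common there.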
